A study of Mus musculus with 12 samples.

Results

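The region described here is the gene desert upstream of Shh on mouse chromosome 5, chr5:28810001-29520000 in mm9, which runs from upstream of the Shh promoter to just before Rnf32. Its members were all array probes outside control spots that lie in this interval, 6267 of 48316 probes, each 60 bases long with a median step of 60 bp. In the 710 kb of desert the probes filled 132 of 142 possible 5 kb tiles with at least 5 probes on every array, out of 964 such tiles on the whole array. H3K27me3 native ChIP DNA and input DNA of 46c cells, a mouse embryonic stem cell (mESC) line with a fluorescent Sox1 reporter, had been compared on custom Agilent arrays. There were 6 conditions, namely neural progenitor cells (NPCs) differentiated from this line in N2B27 medium, ESCs that received eGFP alone, and ESCs that received tSBE(6+2)-Vp64, tSBE2-Vp64, tSBE6-Vp64 or tShh-Vp64. Each condition had 2 arrays, R1 and R2, which were averaged to 1 sample, so p-values measure the spread between these samples, which may be technical in part. The constructs are transcription activator-like effectors (TALEs), designed DNA-binding proteins fused to the Vp64 activator, aimed at the Shh promoter, at SBE6, at SBE2 or at SBE6 and SBE2 together. They were carried by transiently transfected plasmids, and the study's methods sort transfected cells by eGFP, so these populations are neither clones nor stable lines. The NPC day is not in the labels, and the NPC arrays hold a whole differentiated culture.

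Shh encodes a secreted signalling protein that patterns the neural tube, the forebrain and the limb. Its brain expression is driven by enhancers spread over the desert, and those named here are SBE6, about 100 kb upstream of the start site, SBE4 at about 350 kb and SBE2/3 at about 450 kb. NE, a site 66.1 kb upstream, was chosen by the study for its lack of enhancer marks. The mark measured, trimethylation of lysine 27 of histone H3, is laid down by the polycomb repressive complex PRC2 and is found over silent developmental genes, where it can form broad domains. In GENCODE, the lincRNA 9530036O11Rik starts inside Shh, is transcribed away from it, and covers the desert up to chr5:29260535. The only other gene annotated inside the desert, Gm10290, held 0 probes. The remainder of the desert up to Rnf32 is intergenic.

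All values are log2 ratios of the red signal (the Cy5 wavelength) over the green signal (the Cy3 wavelength), centred on each array's median. The sample labels give Cy3 to the ChIP DNA, yet the authors' deposited ChIP/input ratios followed red over green, with correlations over desert probes of 0.73 (tSBE2-Vp64) to 0.87 (tShh-Vp64). The deposited direction was kept, and if the dye labels hold, every sign given here is the opposite.

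The bases under the stretches that the results below turn on are shown here, with CpG dinucleotides in capitals. Each sequence is the plus strand of mm9 under 5 abutting probes without a spot left out, 300 bases in all. Within each run of neighbouring tiles that was higher in NPCs, the 5 probes with the largest NPC minus ESC difference were taken, and within the tile that fell most the 5 probes with the highest ESC ratio, so the values at these bases are a description. The bases of the first NPC stretch (chr5:29273855-29274154), of the second (chr5:29299705-29300004), of the third (chr5:29358501-29358800) and of the ESC stretch inside 9530036O11Rik (chr5:29075538-29075837) read:
NPC stretch 1: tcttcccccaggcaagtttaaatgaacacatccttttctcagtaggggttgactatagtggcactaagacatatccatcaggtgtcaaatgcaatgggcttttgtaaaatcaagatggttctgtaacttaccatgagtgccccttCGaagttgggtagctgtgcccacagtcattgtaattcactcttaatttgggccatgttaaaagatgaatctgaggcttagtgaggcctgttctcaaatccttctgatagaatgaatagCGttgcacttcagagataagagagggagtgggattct
NPC stretch 2: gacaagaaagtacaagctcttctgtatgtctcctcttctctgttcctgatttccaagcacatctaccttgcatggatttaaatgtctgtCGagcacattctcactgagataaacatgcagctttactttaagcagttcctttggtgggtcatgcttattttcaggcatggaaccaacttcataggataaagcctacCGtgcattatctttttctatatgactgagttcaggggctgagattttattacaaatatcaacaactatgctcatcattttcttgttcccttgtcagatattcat
NPC stretch 3: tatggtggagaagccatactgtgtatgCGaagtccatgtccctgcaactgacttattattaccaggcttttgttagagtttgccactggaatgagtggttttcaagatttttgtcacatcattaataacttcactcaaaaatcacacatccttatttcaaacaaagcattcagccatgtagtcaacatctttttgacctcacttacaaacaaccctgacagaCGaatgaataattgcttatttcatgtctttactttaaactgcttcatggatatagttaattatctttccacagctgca
ESC stretch: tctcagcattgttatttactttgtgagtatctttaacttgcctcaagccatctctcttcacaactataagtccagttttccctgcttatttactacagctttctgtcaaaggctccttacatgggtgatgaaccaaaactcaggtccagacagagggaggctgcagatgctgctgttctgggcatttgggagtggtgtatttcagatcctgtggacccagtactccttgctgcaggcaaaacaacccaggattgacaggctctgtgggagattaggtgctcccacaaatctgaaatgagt
The 3 NPC stretches held 2 CpG dinucleotides each, which is also the median of all 1410 such windows in the desert, and the ESC stretch held 0. Their GC contents were 42.7%, 38.7%, 36.3% and 46%, against a median of 46.3% over those windows. The first NPC stretch had log2 ratios of 2.81 (R1) and 2.47 (R2) in NPCs, and -0.65 to 0.30 on the 10 ESC arrays. The second had 2.30 and 1.95 in NPCs, and -0.61 to 0.41 in ESCs. The third had 0.88 and 1.28 in NPCs, and -0.77 to 0.038 in ESCs. In these 3 windows no ESC array reached either NPC array. In the ESC stretch the ESC arrays lay between 0.44 and 1.36, above both NPC arrays (0.017 and 0.38).

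As a check of the sample labels, the promoters of Pou5f1 and Fgf4, both active in ESCs, had ratios of 1.43 and 2.40 in NPCs and means of -0.55 and -0.22 in ESCs, while Nes and Sox9, both neural, had -0.085 and 0.77 in NPCs and 0.73 and 1.33 in ESCs. Slide 1 held eGFP, tShh-Vp64, tSBE6-Vp64 and tSBE2-Vp64, and slide 2 held NPCs and tSBE(6+2)-Vp64. The share of desert probes well above background was 79.5% to 95.8% in the green scans on slide 1 and 59.5% to 84.3% on slide 2. In the red scans it was lowest on the NPC arrays, at 76.0% (R1) and 81.9% (R2), against 85.7% to 91.6% on the ESC arrays. With tSBE(6+2)-Vp64, on the same slide as NPCs, it was 85.7% and 90.0% in red. The NPC values also spread more widely. Over all tiles they rose by 1.24 per unit of the ESC mean, close to the 1.20 of tSBE(6+2)-Vp64 on the other ESC populations.

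In ESCs the desert held ratios near 0 rather than extremes of either sign. The mean over its probes was between -0.10 and -0.019 on the 10 ESC arrays, against 0.075 to 0.15 over the other probes of the array. No desert tile had an ESC mean of 1 or more, whereas 104 of the 832 tiles elsewhere did (12.5%). Only 1 desert tile reached 0.5, against 184 elsewhere (22.1%). At the other end, which would be the high end if the dye labels hold, 11 desert tiles were at -0.3 or less (8.33%), against 243 elsewhere (29.2%). None was at -1 or less, against 31 elsewhere (3.73%). The profile was nevertheless reproducible. Across the 132 tiles, R1 and R2 of a condition correlated at Pearson r = 0.79 (tShh-Vp64) to 0.93 (tSBE2-Vp64), and pairs of ESC populations at 0.64 to 0.86. All 132 tiles lie in the same 12 hybridisations and share their probes, so these correlations describe the profile and no p is given.

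The highest ESC tile was chr5:29075001-29080000, in an intron of 9530036O11Rik about 284 kb upstream of Shh. Its ratios were 0.54 and 0.53 on the eGFP arrays (R1 and R2), 0.41 and 0.40 with tShh-Vp64, 0.35 and 0.50 with tSBE6-Vp64, 0.64 and 0.67 with tSBE2-Vp64 and 0.67 and 0.63 with tSBE(6+2)-Vp64. All 10 lay above the NPC arrays, at -0.014 and -0.11. The next were chr5:29480001-29485000, beyond the lincRNA, with an ESC mean of 0.49 ± 0.24 (SD, n = 5) on 14 probes, and chr5:28920001-28925000, in an intron about 129 kb upstream, with 0.41 ± 0.14. In the first of these NPCs had 0.30 and 0.17, in the second 0.070 and 0.005. The lowest ESC tiles were the neighbours chr5:29460001-29465000, at -0.57 ± 0.15, and chr5:29455001-29460000, at -0.49 ± 0.11, about 664 to 669 kb upstream, followed by chr5:29300001-29305000 at -0.43 ± 0.12. That last tile was among the highest of the desert in NPCs.

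**Figure D1:**
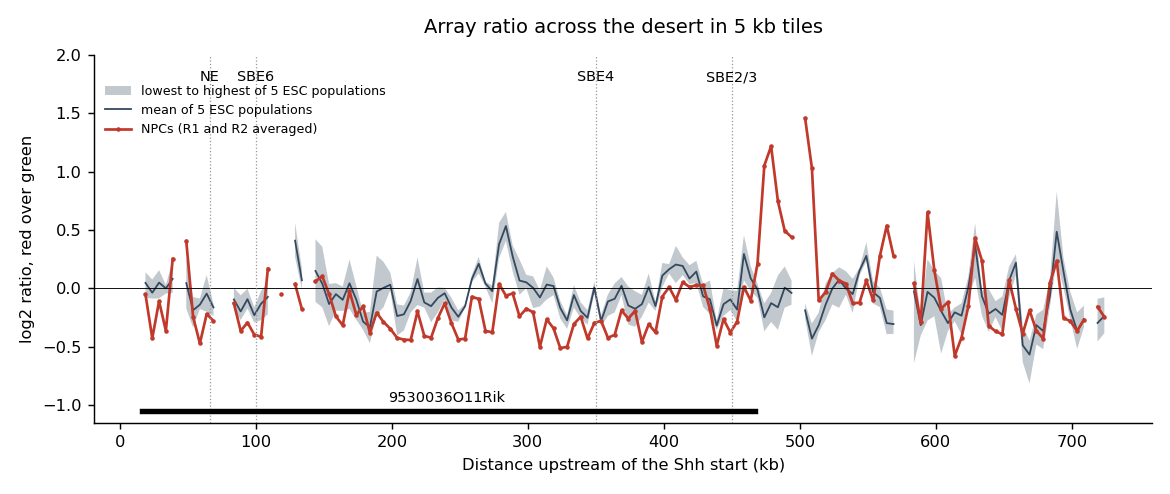
Mean log2 ratio (red over green) in 5 kb tiles against distance upstream of the Shh start in kb, with NPCs in red and the mean and the lowest to highest value of the 5 ESC populations in grey; breaks are tiles with too few probes. NPCs lie mostly below the ESC band within 9530036O11Rik and rise to 1.46 beyond its end, where the ESC mean is below 0.

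The tiles called higher in NPCs all lay beyond the end of 9530036O11Rik, and most of those called lower lay within it. Beyond it, 11 of 47 tiles were higher in NPCs (23.4%), by 0.36 to 1.64 on the log2 scale, and 3 were lower (6.38%). The median difference of the 47 was 0.041, and 19 were below 0, so that side did not rise as a whole. Within it, 0 of 85 tiles were higher and 13 were lower (15.3%), by 0.30 to 0.60. Over the whole desert 11 of 132 tiles were higher (8.33%) and 16 lower (12.1%) by limma with Benjamini-Hochberg adjustment at 0.05. Over all 964 tiles of the array 26.8% were called higher and 11.5% lower, so in this fit the share of desert tiles that fell was near that background and the share that rose was below it. In the other settings with the same tiles the share that rose also stayed below that of all tiles, but the share that fell lay on either side of it. In every one of the 27 called tiles both NPC arrays lay outside all 10 ESC arrays, as they did in 41 of the 105 tiles that were not called. That count is given for the desert only. By condition means, NPCs lay above all 5 ESC populations in 21 of the 132 desert tiles and below them in 75. Over all 964 tiles these numbers were 394 and 300. All 27 kept their direction when NPCs were set only against tSBE(6+2)-Vp64, the ESC population on the same slide. They also did so after NPC values were divided by their slope on the ESC mean. The same held for all 369 called tiles of the array. The tiles were called on these same values, with tSBE(6+2)-Vp64 in the ESC mean, so neither check tests an effect of slide or scale.

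The 2 directions did not hold equally well. The number of higher tiles stayed between 9 and 17 in the settings that kept 5 kb tiles, whereas the number of lower tiles moved with the scaling. It was 4 after the NPC values were rescaled (3.03% of desert tiles, 7.16% of all tiles) and 3 when arrays were centred on the desert instead of on all probes (2.27% and 5.19%). It was 72 with the authors' deposited ratios (54.5% and 33.9%) and 55 with arrays as separate samples (41.7% and 23.3%). Without the trend with GC content, a step that also changes the centring, it was 74 (56.1% and 35.1%). Centring on the desert moves every NPC minus ESC difference up by 0.12, since the median desert probe was at -0.18 in NPCs and at a mean of -0.063 in ESCs. Without the eGFP population 8 tiles were lower, and with the R2 arrays alone 6.

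**Figure D2:**
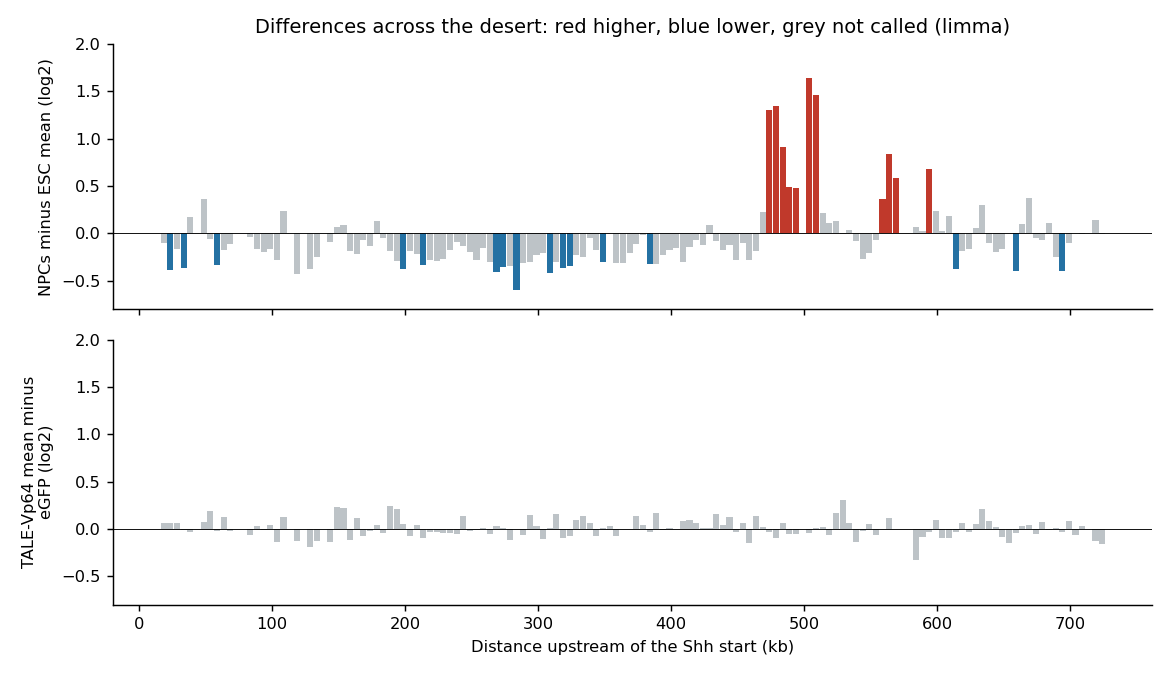
NPCs minus the mean of 5 ESC populations (top) and the mean of 4 TALE-Vp64 populations minus eGFP ESCs (bottom) per 5 kb tile, in log2 units, against distance upstream of the Shh start in kb; red and blue bars are the 11 higher and 16 lower tiles by limma, grey bars are not called. The red bars all lie beyond 470 kb, and no bar of the bottom panel is called.

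The first run of higher tiles, which holds the 300 bases of NPC stretch 1, spanned 5 neighbouring tiles, chr5:29265001-29290000. It began 4.47 kb past the end of 9530036O11Rik and 21.4 kb past the position of SBE2/3. Its tile chr5:29270001-29275000 had ratios of 1.26 and 1.17 on the NPC arrays (R1 and R2). The ESC arrays had -0.055 and -0.046 (eGFP), -0.047 and -0.030 (tShh-Vp64), -0.15 and -0.11 (tSBE6-Vp64), -0.31 and -0.27 (tSBE2-Vp64) and -0.15 and -0.089 (tSBE(6+2)-Vp64). Both NPC arrays were high and all ESC arrays were below 0, a difference of 1.34 (SE 0.12, limma adjusted p = 1.09e-05). The tile before it, chr5:29265001-29270000, had 0.96 and 1.14 in NPCs and -0.47 to -0.12 on the ESC arrays, a difference of 1.30 (SE 0.12, limma adjusted p = 1.23e-05). The tile after it, chr5:29275001-29280000, was read by 17 probes and had 0.88 and 0.61 in NPCs against -0.36 to 0.13 in ESCs. Its difference was 0.91 (SE 0.16, limma adjusted p = 0.000971). The other 2 tiles of the run rose by 0.48 and 0.49, so the run was highest on the side of the lincRNA.

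In bins of 1 kb the rise began soon after the transcript's end. NPC arrays stood at -0.15 and -0.18 in the bin that holds the end of 9530036O11Rik, at 0.44 and 0.60 about 470 kb upstream, and at 1.82 and 1.80 about 472 kb upstream, where the bin held 3 probes. The ESC arrays in these 3 bins averaged -0.19, 0.018 and 0.14. All NPC bins from 470 to 482 kb were positive on both arrays. No bin between about 482 and 488 kb held enough probes to be read.

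The second run, chr5:29295001-29305000, which holds NPC stretch 2, had the largest difference of the desert. Tile chr5:29295001-29300000 had 1.47 and 1.45 in NPCs. The ESC arrays had -0.20 and -0.098 (eGFP), -0.15 and -0.14 (tShh-Vp64), -0.14 and -0.12 (tSBE6-Vp64), -0.26 and -0.25 (tSBE2-Vp64) and -0.33 and -0.19 (tSBE(6+2)-Vp64). The 2 groups were far apart, by 1.64 (SE 0.11, limma adjusted p = 1.43e-06). Tile chr5:29300001-29305000 had 1.05 and 1.01 in NPCs against -0.62 to -0.23 in ESCs, a difference of 1.46 (SE 0.13, limma adjusted p = 1.02e-05). The peak bin of 1 kb, about 506 kb upstream, had 2.13 and 2.14 in NPCs with an ESC mean of -0.26. From about 514 kb upstream the NPC values fell back among the ESC arrays. With a rule of at least 1 on both arrays in 2 kb tiles, NPCs had 2 blocks in the desert, chr5:29266001-29276000 and chr5:29294001-29302000, 18 kb in all, and the 5 ESC populations had 0. Blocks were sought in the desert only. Such levels were rarer there than elsewhere. In NPCs 4 of 132 desert tiles of 5 kb were at 1 or more (3.03%), against 179 of 832 elsewhere (21.5%). In the first block the NPC arrays both averaged 1.10 and the ESC populations -0.18 ± 0.082 (SD, n = 5), and in the second 1.45 and 1.44 against -0.26 ± 0.096. With the deposited ratios, whose values are smaller, no block reached 1, and the tiles of both blocks were still called higher.

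**Figure D3:**
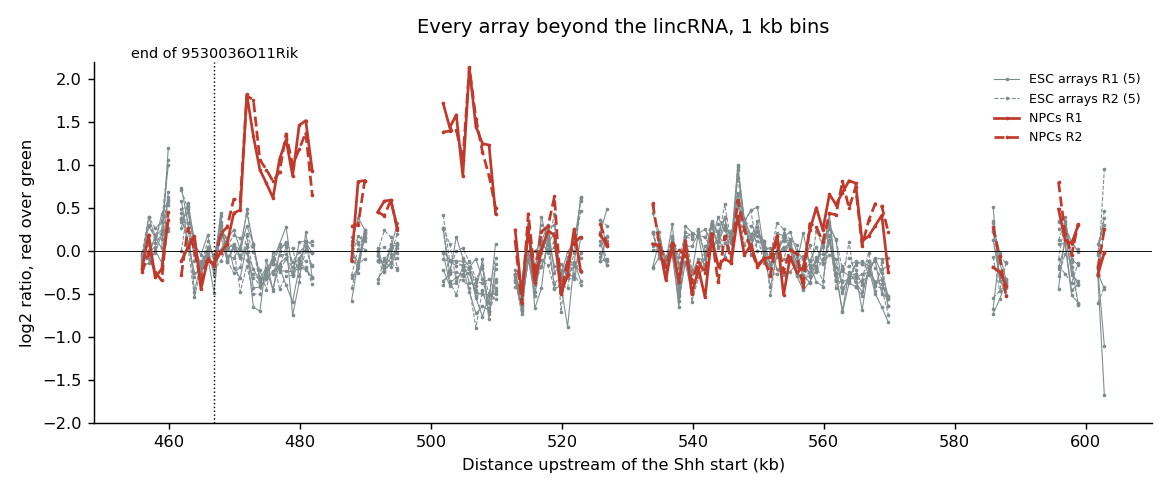
Mean log2 ratio (red over green) in 1 kb bins on each of the 12 arrays, against distance upstream of the Shh start in kb, for the stretch around and beyond the end of 9530036O11Rik; red lines are the NPC arrays, grey lines the ESC arrays, solid R1 and dashed R2. The 2 NPC arrays run together and stand above the ESC arrays from about 470 to 482 kb, from about 502 to 509 kb (up to 2.13) and, less far, from about 557 to 569 kb.

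A weaker stretch lay further out, at chr5:29350001-29365000. Its middle tile, chr5:29355001-29360000, had 0.57 and 0.50 in NPCs against -0.47 to -0.11 in ESCs, a difference of 0.83 (SE 0.12, limma adjusted p = 0.000228). Tile chr5:29360001-29365000 had 0.15 and 0.40 in NPCs and -0.49 to -0.12 in ESCs, a difference of 0.58 (SE 0.12, limma adjusted p = 0.00247), and the third rose by 0.36. The last tile called higher, chr5:29385001-29390000, rests on 10 probes. It had 0.49 and 0.81 in NPCs against -0.35 to 0.25 in ESCs, a difference of 0.68 (SE 0.18, limma adjusted p = 0.0147), and was not called with the R1 arrays alone (limma adjusted p = 0.0891) or after a filter on dim probes in the red scans (limma adjusted p = 0.0611). Of the 33 tiles beyond the lincRNA that were not called, both NPC arrays lay above all ESC arrays in 2 and below all of them in 2. No such count is given for the rest of the array. Over the 1411 probes beyond the lincRNA that lie outside the higher tiles, the NPC arrays averaged -0.16 and -0.14, inside the ESC range of -0.20 to -0.003.

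The 2 colours were also read separately, each relative to its array's median. Over the second run of higher tiles the red signal was at 0.39 and 0.24 in NPCs and between -1.26 and -0.89 on the ESC arrays. The green signal was at -0.66 and -0.79 in NPCs, and at -0.77 to -0.43 in ESCs. Over the first run the red signal was at 0.56 and 0.51 in NPCs against -0.44 to -0.27, and the green signal at -0.079 and -0.10 against -0.18 to 0.049. The groups thus separated in red in these runs, while in green 3 of the 4 NPC values lay within the ESC range and 1 just below it. In the third run the red signal was at 0.040 and 0.077 in NPCs against -0.55 to -0.27, and green lay within the ESC range. In the last tile, on 10 probes, red was at -0.28 and -0.086 in NPCs against -0.92 to -0.21, so R1 fell inside the ESC range, as did green on both NPC arrays.

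Within 9530036O11Rik the ratio was lower in NPCs over a long distance rather than at a few places. From SBE6 to the end of the lincRNA, 3754 probes averaged -0.25 on both NPC arrays. The ESC arrays averaged -0.044 and -0.053 (eGFP), -0.013 and -0.015 (tShh-Vp64), -0.070 and -0.081 (tSBE6-Vp64), -0.060 and -0.046 (tSBE2-Vp64) and 0.002 and 0.010 (tSBE(6+2)-Vp64). No ESC array came near the NPC arrays, and NPCs were 0.21 below the ESC mean and 0.25 below tSBE(6+2)-Vp64. Of the 71 tiles here 64 had a lower ratio in NPCs, 55 of them below all 5 ESC populations, and 10 passed the test (14.1%, against 11.5% of all tiles). Of all 964 tiles, 425 had a lower ratio in NPCs and 300 lay below all 5 ESC populations. The size of the fall depends on the centring, and centring on the desert would move each difference up by 0.12. The red signal was at -0.39 on both NPC arrays and between -0.13 and -0.052 on the ESC arrays. The green signal was at 0.095 and 0.090 in NPCs, within the 0.068 to 0.15 of the ESC arrays.

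The tile that fell most was the highest ESC tile named above, chr5:29075001-29080000, with a difference of -0.60 (SE 0.13, limma adjusted p = 0.00486). Next came chr5:29100001-29105000, at -0.46 and -0.53 in NPCs and -0.18 to 0.009 on the ESC arrays, and chr5:29060001-29065000, at -0.35 and -0.37 against -0.036 to 0.11. Their differences were -0.42 (SE 0.11, limma adjusted p = 0.0127) and -0.41 (SE 0.11, limma adjusted p = 0.0125). All 3 of these tiles lie in introns of the lincRNA, and they passed the test in all 19 alternative settings. The tiles chr5:28990001-28995000, about 199 kb upstream, and chr5:28815001-28820000, at the Shh end, fell by 0.38 and 0.39 (limma adjusted p = 0.0234 and 0.022). Beyond the lincRNA, chr5:29485001-29490000, chr5:29450001-29455000 and chr5:29405001-29410000 fell by 0.40, 0.39 and 0.37 (limma adjusted p = 0.0296, 0.0231 and 0.0229). Each of these 5 lost its call under 2 to 5 of the 19 settings while keeping its direction. Among them, chr5:29485001-29490000 was lost without eGFP ESCs (limma adjusted p = 0.0596).

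**Figure D4:**
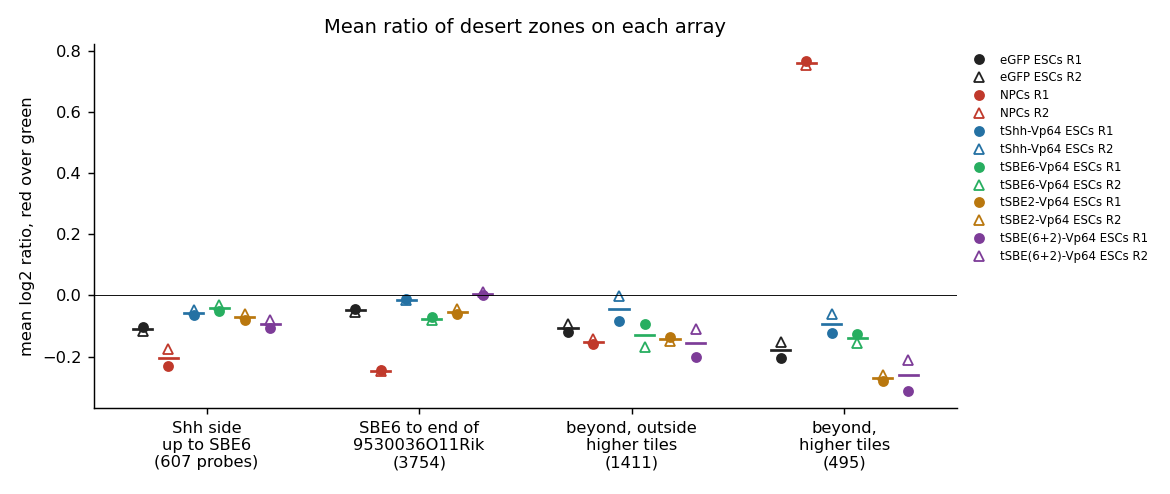
Mean log2 ratio (red over green) of desert probes on each array in 4 parts of the desert, with R1 as filled circles, R2 as open triangles and a bar for the mean of the 2 arrays; the last group holds the tiles called higher and is shown as a description. NPCs (red) lie below every ESC array up to the end of 9530036O11Rik, among them beyond it once the tiles called higher are left out, and at 0.77 and 0.76 in the tiles called higher.

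The enhancer windows averaged near or below 0 in every condition and were lower in NPCs, but by no more than their surroundings. The zone from SBE6 to the end of 9530036O11Rik had a difference of -0.21. The exact coordinates of the enhancers were not used here, so each was read over the probes within 10 kb of its rounded distance from Shh. At SBE6, an enhancer active in neural progenitors, 217 probes averaged -0.36 and -0.35 on the NPC arrays and -0.22 to -0.055 on the ESC arrays. The ESC populations averaged -0.15 ± 0.048 (SD, n = 5), so that NPCs were 0.20 lower. At SBE4, a forebrain enhancer, 228 probes averaged -0.33 and -0.34 in NPCs and -0.19 to -0.12 on the ESC arrays, a difference of -0.18 with an ESC SD of 0.020. At SBE2/3, which also drives forebrain expression, 220 probes averaged -0.23 and -0.31 in NPCs and -0.18 to 0.033 in ESCs, a difference of -0.16 with an ESC SD of 0.064. At NE 131 probes averaged -0.36 and -0.29 in NPCs and -0.18 to -0.011 in ESCs, a difference of -0.23 with an ESC SD of 0.049. Both NPC arrays were below all 10 ESC arrays at each of these 4 places.

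In the 5 kb tiles that hold the positions, SBE4 passed the test by a narrow margin and the others did not. Tile chr5:29140001-29145000 was at -0.37 and -0.22 in NPCs and fell by 0.30 (SE 0.11, limma adjusted p = 0.0466), the smallest of the 16 falls. This call was lost in 12 of 19 alternatives, among them rescaled NPC values (limma adjusted p = 0.11), centring on the desert (0.183), the R2 arrays alone (0.176) and leaving out any 1 ESC population (0.0529 to 0.0888). The tile at SBE2/3, chr5:29240001-29245000, was at -0.42 and -0.34 with a difference of -0.28 (SE 0.12, limma adjusted p = 0.0828). The tile at SBE6, chr5:28890001-28895000, which also holds an exon of the lincRNA, was at -0.37 and -0.42 with a difference of -0.17 (SE 0.11, limma adjusted p = 0.259). The tile at NE, chr5:28855001-28860000, was at -0.22 and -0.21, and its difference of -0.17 had a limma adjusted p of 0.345. The window differences depend on the scale, and with NPC values divided by their slope they were -0.16 at NE, -0.13 at SBE6 and -0.11 at SBE4. At NE a window of 20 kb either side gave -0.061.

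The activators were read near the places they were aimed at, since the exact TALE sites were not used. The Shh promoter, the target of tShh-Vp64, lies outside the desert. With tSBE6-Vp64 the SBE6 window averaged -0.15 and -0.16, against -0.13 and -0.15 with eGFP. The populations differed by -0.013. With tSBE(6+2)-Vp64 the same window averaged -0.22 on both arrays, a difference of -0.080, larger than the SD of the ESC populations (0.048). These arrays were on the other slide from eGFP, so slide and construct cannot be told apart there. At SBE2/3 tSBE2-Vp64 averaged -0.16 on both arrays and tSBE(6+2)-Vp64 -0.094 and -0.12, against -0.11 and -0.12 with eGFP. Their differences were -0.041 and 0.013, within the SD of 0.064. At the Shh end of the desert, the first 20 kb, tShh-Vp64 averaged 0.010 and -0.064 against -0.016 and -0.004 with eGFP. The difference of -0.017 was smaller than the gap between its own arrays. Each construct was 1 sample, so none of these values has a test.

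**Figure D5:**
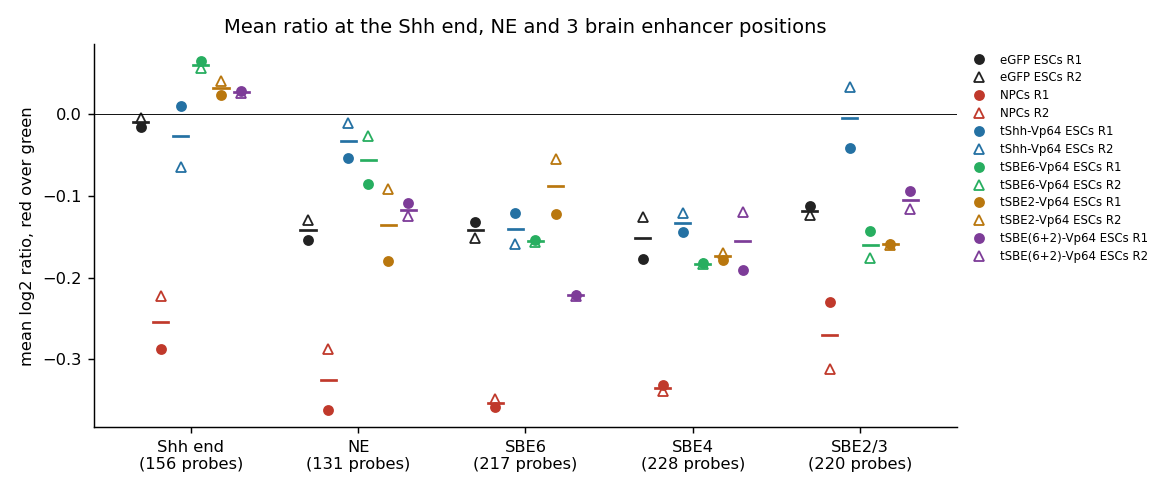
Mean log2 ratio (red over green) on each array over the first 20 kb of the desert and within 10 kb of NE, SBE6, SBE4 and SBE2/3, with R1 as filled circles, R2 as open triangles and a bar for the mean of the 2 arrays. NPCs (red) are the lowest in all 5 places. In the window of its target enhancer each SBE-aimed TALE-Vp64 population lies within 0.080 of eGFP ESCs (black). So does tShh-Vp64 over the first 20 kb, which does not hold its target, the Shh promoter.

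Over all desert tiles the 4 TALE-Vp64 populations together did not pass the test against eGFP anywhere. By limma 0 of 132 tiles were called, as were 0 of 964 on the whole array (0%), and at an unadjusted p of 0.05 the counts were 1 of 132 and 12 of 964 (1.24%). That tile, chr5:29320001-29325000, rests on 5 probes. Its ratios were -0.17 and -0.16 with eGFP and between -0.12 and 0.48 on the TALE-Vp64 arrays, a difference of 0.30 (SE 0.13, unadjusted p = 0.0402, limma adjusted p = 0.997). All TALE-Vp64 arrays lay above both eGFP arrays there, and the difference did not pass adjustment. The next largest differences, 0.25 at chr5:28980001-28985000 and 0.23 at chr5:28940001-28945000, came from some of the constructs. At the first tSBE6-Vp64 had 0.29 and 0.28, and at the second tShh-Vp64 had 0.26 and 0.29 and tSBE6-Vp64 0.42 and 0.29, while tSBE2-Vp64 had -0.22 and -0.10. The most negative were -0.33 at chr5:29375001-29380000, on 10 probes, -0.19 at chr5:28920001-28925000 and -0.16 at chr5:29515001-29520000 (limma adjusted p = 0.997 for each of the 6 tiles).

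One by one, the constructs also differed little from eGFP in the median difference over tiles. The median over the 132 tiles was 0.041 for tShh-Vp64, -0.004 for tSBE6-Vp64, -0.016 for tSBE2-Vp64 and 0.0045 for tSBE(6+2)-Vp64. Single tiles differed by -0.44 to 0.42 (tShh-Vp64), -0.34 to 0.50 (tSBE6-Vp64), -0.37 to 0.23 (tSBE2-Vp64) and -0.88 to 0.35 (tSBE(6+2)-Vp64). The SD of these differences over tiles was 0.11 to 0.15, and that of R1 minus R2 within a condition was 0.086 to 0.14. The first is between means of 2 arrays and the second between single arrays, so the SDs are not like for like.

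NPC ratios tended to be lower in tiles of higher GC content. The median GC content of tiles was 46.0% within 9530036O11Rik and 43.4% beyond it, so GC content and position cannot be told apart. Across the 132 tiles the GC content of probes correlated with the ESC mean at r = 0.080, with NPCs at -0.28 and with their difference at -0.31 (Spearman -0.40), and CpG density correlated with the difference at 0.060. With the GC trend over all tiles subtracted from each condition, the mean difference over desert tiles was -0.25, and it was -0.071 over desert probes without this step. The subtraction also centres each condition on that trend instead of on its median probe. Over the other probes of the array NPCs averaged 0.36 and the ESC populations 0.11, so GC content and centring cannot be told apart here. These are correlations across tiles of the same arrays, given without a p. The 11 higher tiles had GC contents of 40.7% to 46.0% and the 16 lower tiles of 43.1% to 50.1%, within the 38.5% to 51.8% of those not called. Median CpG densities were 5.46, 6.06 and 5.46 per kb in these 3 groups. The highest density among the higher tiles, 10 per kb, was at chr5:29270001-29275000. Of the 16 lower tiles 12 held only intron of 9530036O11Rik, 1 held an exon and 3 were beyond it, and all 11 higher tiles were beyond it. The 57 probes on exons of the lincRNA in the desert averaged -0.20 and -0.34 in NPCs and -0.18 to -0.030 on the ESC arrays.

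The tiles on either side of the desert held higher calls and no lower ones. At the Shh promoter the ratio was 2.22 and 2.18 in NPCs and 0.88 to 1.45 on the ESC arrays, while the first 20 kb of the desert had -0.29 and -0.22 against -0.064 to 0.065. Between Rnf32 and Nom1 14 of 52 tiles were higher in NPCs (26.9%) and 0 lower, with a median difference of 0.19. Between Rbm33 and the desert, the interval that holds Shh, 11 of 32 were higher (34.4%) and 0 lower, with a median of 0.26. Of all tiles 26.8% were higher and 11.5% lower, so the share of higher tiles between Rnf32 and Nom1 was that of the array. The desert's median difference was -0.15 and that of the rest of the array 0.094. Both flanks had lower ratios than the desert in ESCs, with means of -0.53 and -0.47 over their probes. The difference between the desert and its flanks was not tested.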

How the data were processed

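H3K27me3 native ChIP DNA (micrococcal nuclease digestion) and input DNA had been amplified, labelled and hybridised to custom Agilent arrays. Per the file headers, each wavelength was read alone by Feature Extraction 11.5.1.1, which gave background-subtracted intensities at mm9 probe positions. The authors also deposited 1 column of normalized log2 ratios per condition, made with limma per the labels' processing notes. Its centring and scaling are not given in the sources used here, and the methods read here describe other arrays. The deposited direction was kept although the dye labels oppose it.

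Here log2 red over green intensity was centred on each array's median. Spots marked as outliers were left out, 9 to 366 desert probes per array, most on tSBE2-Vp64 R1. Probes were averaged in 5 kb tiles with at least 5 probes on every array, and R1 and R2 per condition. Tiles were fitted with limma 3.58.1 (R 4.3.3), two-sided, NPCs against 5 ESC populations and 4 TALE-Vp64 populations against eGFP ESCs, with Benjamini-Hochberg adjustment over 964 tiles at 0.05. The lone NPC or eGFP sample is assumed to vary like the rest, and construct effects, if any, are part of the spread among ESC populations. The fit was tested on simulated data. Windows and zones are means over probes, with no test. The number of arrays limits the precision, and the planned share of repeat-masked bases was not computed.

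Named were the annotated elements and genes, the 8 called tiles with the largest rise and the 8 with the largest fall in NPCs, the 3 largest TALE-Vp64 differences in each direction, and the 3 highest and 3 lowest ESC tiles. The members and lists were chosen with earlier results of these data known. Alternatives covered normalization, background, dim probes, tile and window size, replication, slide, GC content, centring, and leaving out arrays or populations.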

Additional observations from a re-analysis of the deposited data

Results flagged for a closer look

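Of 37 values checked for a sample far from the others of its group, 1 stood apart. In tile chr5:28990001-28995000, inside 9530036O11Rik, tSBE(6+2)-Vp64 ESCs had a log2 ratio of 0.14 while the other 4 ESC populations lay between -0.012 and 0.021. The gap took up 0.772 of the range of the 5 populations, above the critical value of 0.71. Chance alone flags about 1 in 20 such groups.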

How the results depend on the processing

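None of the 16 tiles named for the largest rise or fall changed direction under any alternative run for tiles, nor did the tiles that hold NE and the enhancers. The 16 were picked on these same arrays, so this is no independent check. The direction of the dye labels, which reverses every sign, was run for blocks only. The call was kept in 150 of 152 alternatives for the 8 tiles that rose most and in 133 of 152 for the 8 that fell most. The number of higher tiles, 11 in the fit reported, was 21 with 2 kb tiles (7.27% of desert tiles, 23.0% of all tiles) and 7 with 10 kb tiles (9.86% and 28.9%). The number of lower tiles, 16, was 28 and 27 after filters on dim probes in the green (21.7% of desert tiles, 14.4% of all tiles) and the red scans (20.6% and 14.2%), 72 with the deposited ratios (54.5% and 33.9%), 4 with rescaled NPC values (3.03% and 7.16%), 74 after removal of the GC trend (56.1% and 35.1%) and 3 with centring on the desert (2.27% and 5.19%). The desert's share of lower tiles thus lay above that of all tiles in some settings and below it in others. Leaving out arrays or populations gave 10 to 12 higher and 6 to 15 lower tiles. The TALE-Vp64 comparison had 0 desert calls in every alternative run, with 0 to 4 tiles at an unadjusted p under 0.05, and leaving out eGFP was not possible there.

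With arrays as separate samples, the fit without a replicate block called 17 desert tiles higher and 55 lower (12.9% and 41.7%, against 34.2% and 23.3% of all tiles), and with array number as a replicate block 17 and 49 (12.9% and 37.1%, against 33.8% and 22.0%). Over 15 pairs of conditions the R1 deviations correlated at -0.252 to 0.428, and 4 pairs exceeded 0.1, so R1 and R2 were not treated as pairs across conditions.

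The mean NPC minus ESC difference over the desert, -0.071, was -0.11 and -0.12 with the green and red filters, -0.18 with the deposited ratios and -0.043 rescaled. It was -0.25 over tiles without the GC trend, a step that also changes the centring. At NE, -0.23 became -0.17 with loess, -0.33 with the deposited ratios, -0.16 rescaled, -0.17 and -0.061 in windows of 5 and 20 kb and -0.29 as a median. At SBE6, -0.20 became -0.12 with loess, -0.29 with the deposited ratios, -0.13 rescaled and -0.15 in 20 kb. At SBE4, -0.18 became -0.11 with loess, -0.13 with normexp, -0.20 with the red filter, -0.24 with the deposited ratios, -0.11 rescaled, -0.22 in 20 kb and -0.22 as a median. No alternative moved the SBE2/3 difference beyond the ESC spread. Of the 5 kb tiles at these places, SBE4 lost its call in 12 of 19 alternatives, and NE, SBE6 and SBE2/3 gained one in 2, 4 and 4. The tSBE(6+2)-Vp64 difference at SBE6, -0.080, was -0.13 both with the red filter and in a 5 kb window. That of tSBE2-Vp64 at SBE2/3, -0.041, was 0.023 with the red filter, 0.022 with the deposited ratios and 0.023 as a median. That of tShh-Vp64 at the Shh end was 0.027 with the deposited ratios and -0.060 to 0.026 over the single arrays.

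The 2 NPC blocks, 18 kb in all, were 1 block with loess (8 kb), the green filter (2 kb) and the red filter (4 kb), 0 blocks (0 kb) with the deposited ratios, a threshold of 1.5 or the direction of the dye labels, and 6 blocks (34 kb) at a threshold of 0.5. With normexp they covered 10 kb. The ESC populations held 0 to 1 blocks over the single arrays and 28 at a threshold of 0.5. The cause of these changes was not tested.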
